A study of Mus musculus with 24 samples.

Results

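The angiopoietins and the angiopoietin-like genes were followed through mouse embryonic fibroblasts (MEF) that lose the H3K9 methyltransferases step by step. The 8 genes are Angpt1, Angpt2, Angpt4, Angptl1, Angptl2, Angptl4, Angptl6 and Angptl7, of 47937 gene entries in the count table. They were chosen by symbol because Angptl7 is almost lost in the line called 6KO1. That loss is therefore a description of how the genes were picked. No test of a single gene is given for any contrast that uses the 6KO1 libraries. Angptl7 is also not tested in any contrast that uses the WT libraries.

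Total RNA was sequenced from 24 libraries, 3 for each of 8 conditions. WT is an Eset1 conditional MEF clone in its control state, named E25 ctr, and E1 is the same clone after 4-hydroxytamoxifen (4-OHT), in which Cre removes Eset1 (Setdb1) exons. E1 S1S2 adds mutations of Suv39h1 and Suv39h2 (clone B1), and 6KO1 carries mutations of all 6 enzymes (clone B1A6), both after 4-OHT. E2 is the Eset1 conditional, Eset2 (Setdb2) knockout clone A4 in its control state, and E1E2 is that clone after 4-OHT. E1E2 G9Gl adds mutations of G9a (Ehmt2) and Glp (Ehmt1, clone E2), and 6KO2, derived from it, lacks all 6 enzymes (clone E2F4), again both after 4-OHT. All lines share the Eset1 conditional background with a tamoxifen-inducible Cre. Both control conditions are named ctr in the titles, although the treatment field of every sample names 4-OHT. Each line is 1 clone, so genotype and clone cannot be told apart, and the 4-OHT exposure cannot be told apart from the Eset1 deletion. Replicates were separate biological samples of 1 cell line.

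Angiopoietins are secreted ligands of the endothelial receptor tyrosine kinase Tie2, encoded by Tek. Angpt1 activates the receptor, Angpt2 acts mostly as a context-dependent antagonist, and Angpt4 is the mouse counterpart of a further Tie2 ligand. The angiopoietin-like proteins share the coiled-coil and fibrinogen-like architecture but do not bind Tie2. Angptl4 inhibits lipoprotein lipase and is a classical target of PPAR nuclear receptors and of hypoxia, whereas Angptl2, Angptl6 and Angptl7 are secreted factors linked to inflammation, metabolism and extracellular matrix.

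Upstream sequence is shown for Angptl7, whose level moved most between the lines, for Angptl2, which stayed abundant in all of them, and for Angpt4, which was close to absent outside a pair of lines. Each run is the 250 bases before the RefSeq transcription start (GRCm38.p6), written 5′ to 3′ on the gene's own strand, with every CG dinucleotide in capitals.
Angptl7 (chr4:148500463-148500712, minus strand): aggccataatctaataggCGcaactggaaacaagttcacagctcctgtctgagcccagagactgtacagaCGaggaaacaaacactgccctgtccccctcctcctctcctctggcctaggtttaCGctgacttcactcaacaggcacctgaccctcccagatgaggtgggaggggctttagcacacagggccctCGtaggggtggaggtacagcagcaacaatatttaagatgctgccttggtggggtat
Angptl2 (chr2:33215711-33215960, plus strand): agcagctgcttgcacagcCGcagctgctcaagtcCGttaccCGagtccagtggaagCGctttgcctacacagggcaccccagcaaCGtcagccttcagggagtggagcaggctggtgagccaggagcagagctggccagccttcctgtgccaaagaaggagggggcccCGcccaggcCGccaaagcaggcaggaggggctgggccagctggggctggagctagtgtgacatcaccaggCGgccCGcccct
Angpt4 (chr2:151910957-151911206, plus strand): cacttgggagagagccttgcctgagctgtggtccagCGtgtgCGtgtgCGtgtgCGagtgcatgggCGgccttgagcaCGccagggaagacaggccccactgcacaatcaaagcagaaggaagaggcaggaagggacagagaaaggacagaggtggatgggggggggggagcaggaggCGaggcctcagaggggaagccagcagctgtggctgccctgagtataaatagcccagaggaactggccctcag

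The windows differed in CG content and in the TATAAA motif. The Angptl7 window holds 4 CG dinucleotides, and 44.4% of the 32851 windows in the table hold as few or fewer. The Angptl2 window holds 9 (62.2%) and the Angpt4 window 7 (57.0%), against a median of 6 over all windows. Of these 3 windows the Angpt4 one holds TATAAA, searched on both strands, as do 12.4% of all windows. Windows were found for 5 of the 8 members, and those of Angptl1 and Angptl6 hold 6 and 3 CG dinucleotides and no TATAAA. Angptl4, Angpt1 and Angpt2 had no entry.

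Several members are nested in other genes on the opposite strand (GRCm38). Angptl7 (ENSMUSG00000028989, chr4:148495183-148500460) lies inside Mtor, the kinase of growth control, without sharing exon bases with it. Angpt2 (ENSMUSG00000031465, chr8:18690263-18741562) lies in the same way inside Mcph1, Angptl2 (ENSMUSG00000004105, chr2:33216069-33247717) inside Ralgps1, and Angptl1 (ENSMUSG00000033544, chr1:156838562-156861078) inside Ralgps2. Angptl4 (ENSMUSG00000002289) lies at chr17:33773750-33781830 and Angpt4 (ENSMUSG00000027460) at chr2:151911210-151945337. Angptl6 (ENSMUSG00000038742, chr9:20873808-20879727) shares 265 exon bases with the opposite-strand A230050P20Rik. Angpt1 (ENSMUSG00000022309, chr15:42424723-42676977) shares 737 exon bases with the antisense gene Gm17473. The strand setting of the counting is not given in the sources used here, so reads in the shared bases could belong to either gene.

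Libraries held between 19541909 and 31489070 reads on genes. WT replicate 2 stood apart from its group, with a chi-square per gene of 68.3 and 57 against the other WT libraries, which differed from each other by 5.04. The libraries labelled E1 had lower Setdb1 than WT (log2 fold change -0.57), but Setdb1 differed by 0.01 between E1E2 and E2, and in the libraries labelled E1 S1S2 Suv39h2 was higher than in WT (log2 fold change 0.76). Gene-level counts include reads outside a deleted exon and from frameshift transcripts, so they check the labels only in part. Fibroblast markers had summed levels of 1540 to 3920 TPM (reads corrected for gene length and library depth) over all libraries. Endothelial markers summed to 0.346 to 0.75 TPM in WT and to at most 4.21 TPM in any library, with 3 of 10 genes at 0 in WT.

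Most of the family was expressed at low level. In WT, Angptl7 was the most abundant member per unit length at 143.8 ± 5.5 TPM (SD, n = 3), followed by Angptl2 at 26.3 ± 3.9 TPM. Angptl6 at 4.17 ± 1.03 TPM and Angptl4 at 3.85 ± 0.53 TPM did not differ beyond their spread, and Angpt2 (0.671 ± 0.075 TPM) and Angpt4 (0.24 ± 0.11 TPM) were lower. In E1E2 G9Gl that order was different, with Angptl2 at 40.7 ± 2.2 TPM, Angptl6 at 6.76 ± 0.62 TPM, Angpt2 at 2.684 ± 0.014 TPM, Angpt4 at 1.42 ± 0.52 TPM, Angptl4 at 0.601 ± 0.180 TPM and Angptl7 at 0.0825 ± 0.031 TPM.

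Of the 8 members, 6 passed the filter on low counts. Angptl1 had 1 read in all libraries together and Angpt1 had 13 reads in 8 libraries, 7 of them in 6KO2. Angptl8, a family gene outside the rule that regulates lipoprotein lipase activity, had between 0 and 2 reads per library. Angpt4, with 196 reads in total, passed the filter only through E1E2 G9Gl, the condition in which it was highest, so its difference there is given as a value and is no support for a pattern over the family.

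**Figure D1:**
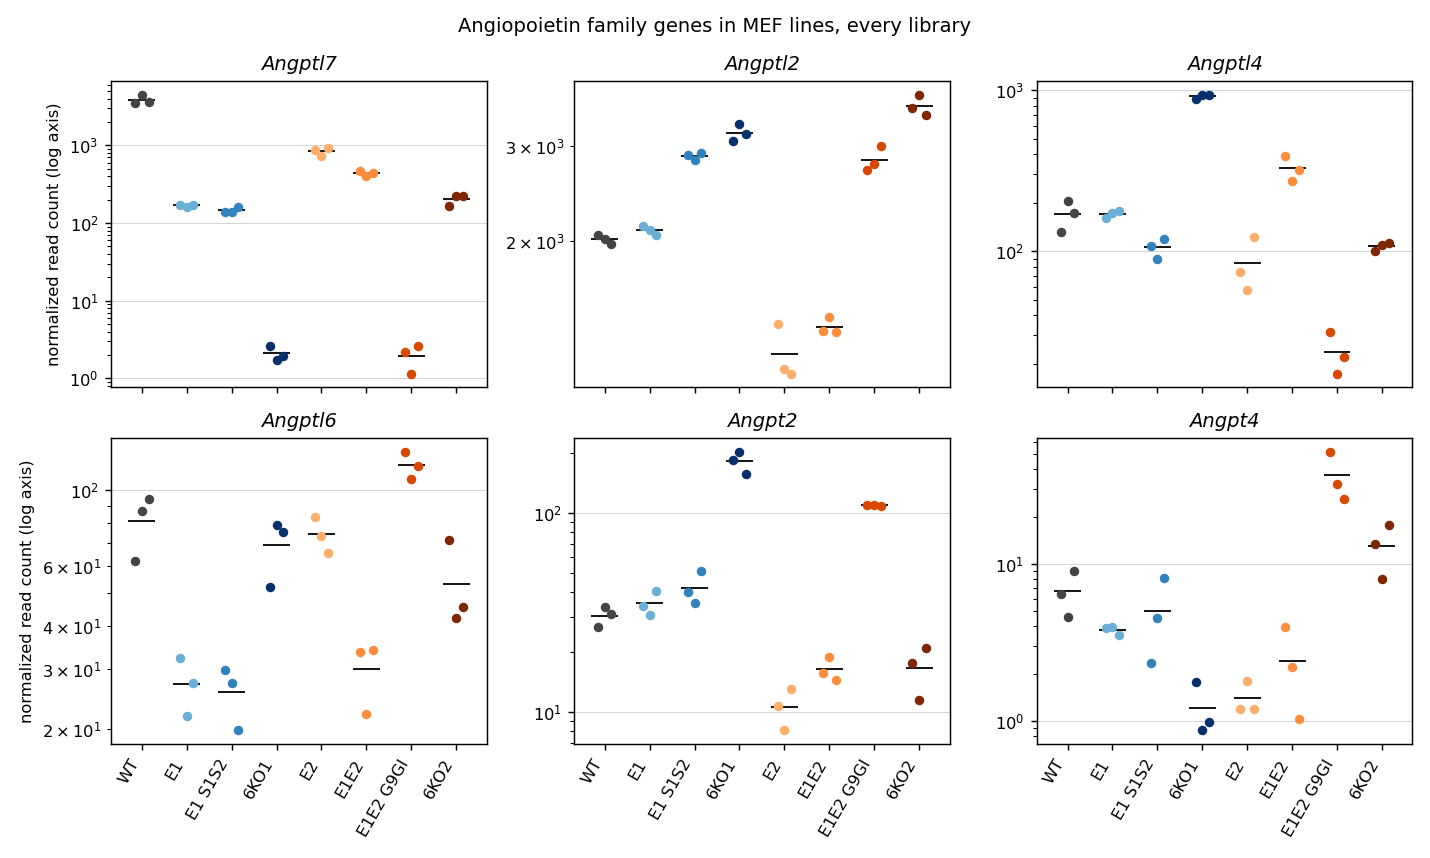
Normalized read counts on log axes for the 6 members that passed the filter, with 1 point per library, 3 libraries per condition and a black bar at the mean. Angptl7 is at 1.16 to 2.64 in 6KO1 and E1E2 G9Gl and is at 166.5 to 221.8 in 6KO2, while Angptl4 is highest in 6KO1 and lowest in E1E2 G9Gl.

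Angptl7 was high in WT and lower in every mutant line. Values are normalized read counts, scaled so that libraries of different depth can be compared. WT libraries held 3463, 4454 and 3605, E1 libraries 172.9, 161.9 and 172.3, and E1 S1S2 libraries 137, 138.6 and 161.9. The WT mean was 22.7 times that of E1, and 20.9 times without WT replicate 2.

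In its control state, the clone with the Eset2 mutation (E2) held less Angptl7 than WT, whereas E1E2 held more than E1. E2 libraries held 874.4, 737.2 and 913.7, and E1E2 libraries held 470.9, 407.4 and 446.5, so the E2 and E1E2 groups did not overlap with each other, with WT or with E1. Angptl7 was at 2.638, 1.741 and 1.956 in 6KO1, which are 3, 2 and 2 reads. E1E2 G9Gl was as low, at 2.157, 1.156 and 2.59, or 2, 1 and 2 reads.

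In the second line that lacks all 6 enzymes Angptl7 did not resemble the first. 6KO2, which was derived from the E1E2 G9Gl clone, held 166.5, 221.8 and 220.9, with 1 library inside the range of E1 and the remaining libraries above it. The order of levels was thus WT, E2, E1E2, then 6KO2, E1 and E1 S1S2, whose neighbouring ranges met or overlapped, and last 6KO1 and E1E2 G9Gl, which overlapped. As depth-scaled ratios of summed reads, given as descriptions, WT (11720 reads) stood 1830-fold above 6KO1 (7 reads) and 1980-fold above E1E2 G9Gl (5 reads), and 6KO2 (555 reads) stood 95.5-fold above 6KO1. In bulk RNA, fewer cells of a type and less RNA per cell cannot be told apart.

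Angptl7 was tested only between lines that the rule did not use. A gene was called when it changed at least 2-fold with an adjusted p of at most 0.01 (edgeR quasi-likelihood test, Benjamini-Hochberg over 18565 genes). From E1E2 to E1E2 G9Gl it fell by 7.74 on the log2 scale (SE 0.251, adjusted p = 1.11e-17), with 1278 reads against 5 and a ratio of 227 (exact Poisson 95% interval 97.1 to 701, which covers counting error only). From E1E2 G9Gl to 6KO2 it rose by 6.61 (SE 0.286, adjusted p = 6.51e-15), a ratio of 104 (44.1 to 320). With 5 reads in the low group the ratio intervals are the better guide to these sizes.

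The other steps in which Angptl7 was tested changed it by less than 2-fold. E1E2 stood at a log2 fold change of -0.93 against E2 (SE 0.103, adjusted p = 7.28e-07), a significant difference smaller than the 2-fold minimum. E1 S1S2 and E1 did not differ beyond the replicate error (log2 fold change -0.22, 95% interval -0.47 to 0.04, adjusted p = 0.171).

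**Figure D2:**
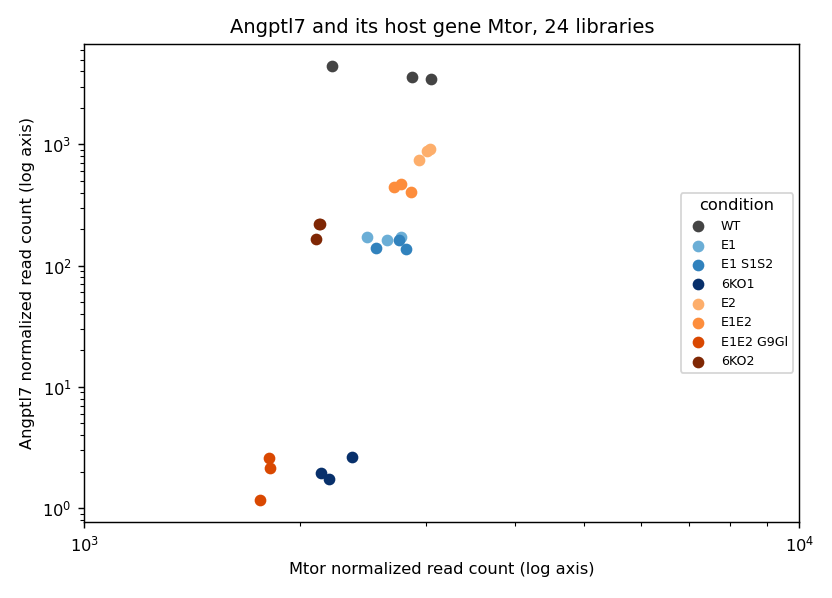
Normalized read counts of Angptl7 against those of its host gene Mtor on log axes, 1 point per library, coloured by condition. Angptl7 spans 1.16 to 4454 while Mtor stays between 1761 and 3050.

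The host gene of Angptl7 changed far less. Mtor averaged 2714 ± 437 normalized reads in WT, 1798 ± 31.9 in the E1E2 G9Gl line, 2236 ± 116 for 6KO1 and 2126 ± 14.7 for 6KO2 (SD, n = 3). Its log2 fold change was -0.63 from E1E2 to E1E2 G9Gl and 0.24 from there to 6KO2, neither past the 2-fold minimum (adjusted p = 2.41e-07 and 0.012, edgeR). The plot of Angptl7 against Mtor shows the conditions spread over 3 orders of magnitude in height and in a narrow column in width. Of the 6 genes tested within 250 kb of Angptl7, none was called in either of these steps, where their log2 fold changes ran from -0.74 to 0.43 and from -1.29 to 0.71 (edgeR, as above).

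Angptl4, the inhibitor of lipoprotein lipase, moved in both directions. WT libraries held 132.1, 204.6 and 171.6 normalized reads and E1 libraries 161.2, 171.8 and 177.6, which overlapped. In E1 S1S2 the values were 108, 89.67 and 118.7, below WT in every library but not past the 2-fold minimum (log2 fold change -0.69, adjusted p = 0.00398, edgeR). In 6KO1, as a description, they were 881, 935.7 and 935.9, the highest of any condition.

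In the other series Angptl4 first rose and then fell. E2 held 73.76, 57.39 and 122.4, E1E2 held 392.1, 274.6 and 321.5, E1E2 G9Gl held 31.28, 17.34 and 22.02, and 6KO2 held 100.3, 108.6 and 112.7. These groups did not overlap, except that the highest E2 library lay above 6KO2. Angptl4 rose from E2 to E1E2 by 1.99 on the log2 scale (SE 0.193, adjusted p = 9.5e-08, edgeR), fell by 3.79 from E1E2 to E1E2 G9Gl (SE 0.24, adjusted p = 2.6e-12) and rose by 2.17 from E1E2 G9Gl to 6KO2 (SE 0.272, adjusted p = 4.5e-07).

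Against WT, Angptl4 was called lower in E1E2 G9Gl and in E2. In E1E2 G9Gl it fell by 2.83 on the log2 scale (SE 0.255, adjusted p = 9.91e-10, edgeR), and by 2.67 without WT replicate 2. In E2 it fell by 1.03 (SE 0.202, adjusted p = 3e-04), and this call was lost without WT replicate 2 (-0.88), without E2 replicate 1 (-0.96) or 2 (-0.80), and when only E2 and WT were fitted (-0.99, adjusted p = 0.0384). In E1E2 the log2 fold change of 0.95 just missed the 2-fold minimum (adjusted p = 0.000106), and it was 1.12, past the minimum, without WT replicate 2.

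The change of Angptl4 with 4-OHT differed between the parent clone and the Eset2 mutant clone. It was 0.00 on the log2 scale from WT to E1 and 1.99 from E2 to E1E2, a difference of 1.99 (SE 0.267, adjusted p = 1.04e-05, edgeR test of the difference). By an adjusted p of at most 0.01 for such a difference, 8.89% of all genes tested were called. Angptl4 was the only one of the 7 members counted, with Angptl7 left out. Angptl1 and Angpt1 are among the 7 but were not tested.

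Angpt2, the context-dependent Tie2 ligand, was high in 6KO1 and in E1E2 G9Gl. WT libraries held 26.64, 33.79 and 31.11 normalized reads, E2 libraries 10.71, 8.071 and 13.07, and E1E2 libraries 15.76, 18.82 and 14.47. E1E2 G9Gl held 110, 109.8 and 108.8, and 6KO2 held 17.58, 11.43 and 20.99. In 6KO1, as a description, Angpt2 was at 185.5, 203.7 and 156.5.

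The Angpt2 rise in E1E2 G9Gl stood well outside the replicate spread. Against WT it rose by 1.83 on the log2 scale (SE 0.173, adjusted p = 2.18e-09, edgeR) and against E1E2 by 2.74 (SE 0.194, adjusted p = 1.98e-11). From E1E2 G9Gl to 6KO2 it fell by 2.70 (SE 0.195, adjusted p = 5.51e-11), back among the E1E2 values. E2 was lower than WT by a log2 fold change of -1.55 (adjusted p = 3.97e-05), while E1 overlapped WT. All E1 S1S2 libraries (35.32 to 51.27) lay above all WT libraries, with a log2 fold change of 0.46 under the 2-fold minimum (adjusted p = 0.0449). Mcph1, the host gene of Angpt2, went the opposite way in E1E2 G9Gl (log2 fold change -0.95 against E1E2, under the 2-fold minimum).

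Angpt4 was near the detection limit except in E1E2 G9Gl and 6KO2. E1E2 G9Gl libraries held 51.78, 32.38 and 25.9 normalized reads and 6KO2 libraries 13.45, 8.002 and 17.67, while no library of the other 6 conditions was above 9.032. The summed reads of E1E2 G9Gl stood 15.4-fold (Poisson 95% interval 7.21 to 39.4) above E1E2, 96 against 7 reads, and 5.67-fold (3.48 to 9.7) above WT. The 6KO1 libraries had 4 reads in all.

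Angptl6, a circulating factor of energy metabolism, was lower in E1, E1 S1S2 and E1E2 than in both control conditions. WT libraries held 61.8, 86.75 and 94.34 normalized reads, E1 libraries 32.24, 21.72 and 27.26, and E1 S1S2 libraries 29.75, 27.17 and 19.79. E2 held 83.28, 73.54 and 65.35, within the WT range, and E1E2 held 33.49, 22.14 and 34.11. All libraries of E1, E1 S1S2 and E1E2 lay below all libraries of WT and E2.

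The fall of Angptl6 did not differ detectably between the 2 clones. It fell by 1.58 on the log2 scale in E1 against WT (SE 0.232, adjusted p = 1.86e-05, edgeR), or by 1.53 without WT replicate 2, and by 1.30 in E1E2 against E2 (SE 0.237, adjusted p = 0.000321). The difference between these falls was 0.28 with a 95% interval of -0.42 to 0.99. In E1E2 G9Gl it was at 129.4, 107.5 and 117.9, a rise of 1.97 from E1E2 (adjusted p = 6.97e-08), and in 6KO2 at 71.37, 42.3 and 45.29, a fall of 1.15 from E1E2 G9Gl (adjusted p = 6.36e-05).

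Angptl2, an inflammation-linked secreted protein, varied least of the 6. Its lowest library held 1141 normalized reads, in E2, and its highest 3726, in 6KO2. E1E2 libraries held 1366, 1451 and 1360 and E1E2 G9Gl libraries 2714, 2779 and 2995, a rise of 1.02 on the log2 scale (SE 0.0642, adjusted p = 2.18e-12, edgeR). This was its single call, and without E1E2 G9Gl replicate 3 the value was 0.98, under the 2-fold minimum.

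**Figure D3:**
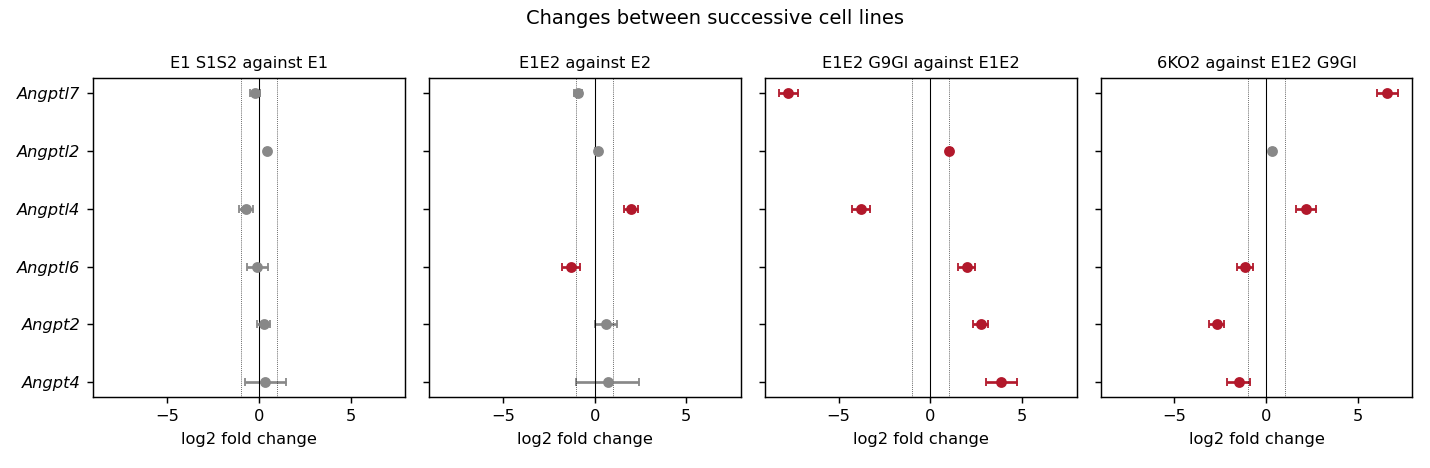
Log2 fold changes of the 6 members with 95% intervals for the 4 tested steps between related lines, red where the change was called, with dotted lines at a 2-fold change. Angptl4, Angptl6, Angptl7 and Angpt2 were called in both the E1E2 G9Gl and the 6KO2 step, with opposite signs. Both steps share the E1E2 G9Gl libraries, which enter them with opposite sign. Angpt4, also drawn, passed the filter only through E1E2 G9Gl.

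The counts of called members are given per step, with Angpt4 left out where E1E2 G9Gl is compared. Here and in the counts against WT, the members counted include Angptl1 and Angpt1, which failed the filter and could not be called. The shares of all genes are over tested genes only. From E1E2 to E1E2 G9Gl, 5 of 7 members were called, 3 higher and 2 lower, where 21.6% of all genes tested were called. From E1E2 G9Gl to 6KO2, 4 of 7 were called, 2 higher and 2 lower, against 16.3% of all genes. Both steps share the E1E2 G9Gl libraries, so a high or low value in these 3 libraries enters both with opposite sign. From E2 to E1E2 the members called were Angptl4 and Angptl6, against 2.97% of all genes, and from E1 to E1 S1S2 none was, by edgeR or DESeq2, against 8.06%, with 2 members at an unadjusted p under 0.05.

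Against WT, where Angptl7 is not counted, the calls were fewer. Of 7 members, Angptl6 alone was called in E1 (4.26% of all genes called), in E1 S1S2 (11.8%) and in E1E2 (8.73%). Angptl4 and Angpt2 were called lower in E2 (6.11%), and in E1E2 G9Gl, of 6 members without Angpt4, Angptl4 was called lower and Angpt2 higher (25.2%). None was called in 6KO2 (20.7%) by edgeR or DESeq2, although 5 had an unadjusted p under 0.05.

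The step that adds the Suv39h mutations was also compared between the 2 series. It was E1 to E1 S1S2 in one and E1E2 G9Gl to 6KO2 in the other. The difference between them was 6.83 on the log2 scale for Angptl7 (SE 0.336, adjusted p = 1.18e-13, edgeR), 2.86 for Angptl4 (SE 0.333, adjusted p = 1.93e-07) and -2.96 for Angpt2 (SE 0.271, adjusted p = 4.54e-09). These were 3 of 7 members, with Angpt4 left out. Angptl1 and Angpt1 are among the 7 but were not tested, whereas the share of 39.2% called is over tested genes only. Angptl6 (-1.07, adjusted p = 0.0115) missed the threshold and passed it with DESeq2 (adjusted p = 0.00936), with RLE factors, with no filter, with only the conditions compared and in 3 of the 12 fits that left out 1 library. Angpt4, which passed the filter on low counts only through E1E2 G9Gl, had a difference of -1.85, given as a value only. The steps start from different clones with different enzymes missing.

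Several members had different levels in the 2 lines that lack all 6 enzymes, given here without a test of any member. Angptl7 was picked for its level in 6KO1. Mean normalized reads in 6KO1 and 6KO2 were 2.11 ± 0.47 and 203.1 ± 31.7 for Angptl7, 917.5 ± 31.7 and 107.2 ± 6.3 for Angptl4, 181.9 ± 23.8 and 16.7 ± 4.8 for Angpt2 and 1.20 ± 0.48 and 13.0 ± 4.8 for Angpt4 (SD, n = 3). For each of these genes the groups did not overlap. Angptl2 was at 3172 ± 120 and 3557 ± 153, and Angptl6 at 68.8 ± 14.8 and 53.0 ± 16 in the same order. The ranges of Angptl6 overlapped and those of Angptl2 did not. Over all genes, 3131 of the 18565 tested passed the call between these lines (edgeR). How many of all genes had groups without overlap was not counted.

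**Figure D4:**
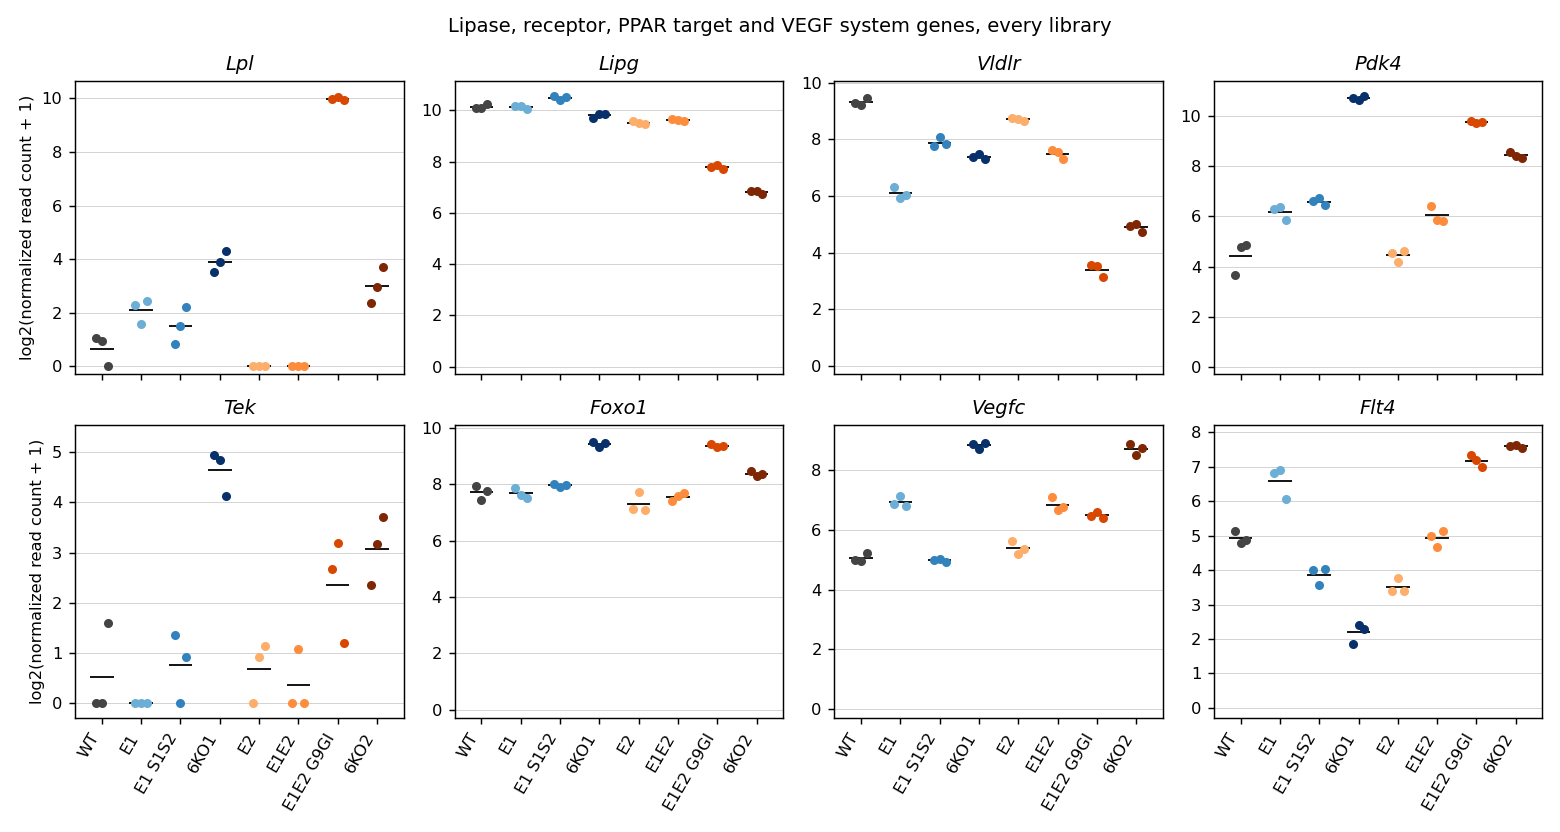
Log2 of the normalized read count plus 1 for lipase, receptor, PPAR target and VEGF system genes, with 1 point per library, 3 libraries per condition and a black bar at the mean of the log values. Lpl is near 10 in E1E2 G9Gl and at 0 in E2 and E1E2, where no read was counted.

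The enzyme that Angptl4 inhibits showed the opposite pattern to Angptl4 in E1E2 G9Gl. Lpl, lipoprotein lipase, averaged 1011 ± 41.5 normalized reads there (SD, n = 3), 0.66 ± 0.58 in WT and 7.7 ± 4.1 in 6KO2, and had no read in E2 or E1E2. With an allowance of 3 reads over the 3 E1E2 libraries, E1E2 G9Gl was at least 973-fold higher than E1E2, and it stood 132-fold (Poisson 95% interval 86.4 to 214) above 6KO2. Lpl was thus highest where Angptl4 was lowest, whereas in 6KO1, where Angptl4 was highest, it averaged 14.35 ± 4.03.

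Other targets and receptors of the angiopoietin-like proteins were lower. Of 9 genes on this list 5 were tested, and 2 were called higher (Lpl and its maturation factor Lmf1) and 2 lower (the endothelial lipase Lipg and the lipoprotein receptor Vldlr) in E1E2 G9Gl against WT, where 25.2% of all genes were called. The median log2 fold change was -0.18, against 0.01 over all genes. Lpl, at no more than 1 read per WT library, passed the filter only through other lines, so its call is no support for a pattern. Vldlr fell by 6.02 on the log2 scale in E1E2 G9Gl and Lipg by 2.34, and in 6KO2 they fell by 4.47 and 3.33 (adjusted p between 3.36e-20 and 3.77e-18, edgeR).

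Several genes of the PPAR system were higher in E1E2 G9Gl, where Angptl4, a target of these receptors, was lower. Of 13 genes 11 were tested, and Pparg, Pdk4, Cpt1a and Fabp4 were called higher and none lower, where 25.2% of all genes were called, with a median log2 fold change of 0.52 against 0.01 over all genes. Pdk4, a pyruvate dehydrogenase kinase, rose by 5.27 on the log2 scale (SE 0.174, adjusted p = 1e-17, edgeR), from 22.1 ± 9.0 to 868.6 ± 31.8 normalized reads, and Pparg rose by 3.15 (SE 0.14, adjusted p = 2.83e-15). Fabp4, at no more than 4 reads per WT library, passed the filter only through other lines, so its call is no support for a pattern. In 6KO1, Pdk4 (1695 ± 84.3) and Pparg (251.7 ± 14.5) were high together with Angptl4.

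Of 11 hypoxia response genes tested, 5 were called lower and none higher in E1E2 G9Gl against WT, where 25.2% of all genes were called, with a median log2 fold change of -0.78 against 0.01 over all genes. Ddit4, a stress-induced inhibitor of mTOR signalling, fell by 2.52 on the log2 scale, and Egln3, a prolyl hydroxylase of the hypoxia pathway, by 1.48 (adjusted p = 5.96e-13 and 9.79e-06, edgeR). From E1E2 G9Gl to 6KO2 both rose, by 1.24 and 3.48, as Angptl4 did. From E2 to E1E2, where Angptl4 rose, Ddit4 and Bnip3 fell, by 1.06 and 1.12, and 2.97% of all genes were called (edgeR). Bnip3 ranged from 305.8 to 1112 normalized reads in E2 and from 217.7 to 365.4 in E1E2, so these groups overlapped. In E2 against WT, where Angptl4 was called lower, Egln3 and Adm rose by 1.12 and 2.38, and 6.11% of all genes were called. Adm, at 10 to 13 reads per library in E2 and at most 5 in WT, passed the filter through E2, so its rise is no support for a pattern. In 6KO1, where Angptl4 was highest, Egln3 averaged 148.3 ± 24.4 normalized reads, against 157.6 ± 12 in WT.

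The Tie receptors of the angiopoietins were close to absent in WT. Tek, the Tie2 receptor, had 2 reads in the 3 WT libraries and averaged 4.9 ± 3.4 normalized reads in the E1E2 G9Gl line, 8.1 ± 4.0 for 6KO2 and 24.8 ± 7.1 for 6KO1. In 6KO2 the summed reads stood 12.1-fold (2.98 to 106) above WT. Tie1, its co-receptor, was at no more than 3.52 normalized reads in any library.

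Of 11 Tie pathway genes 10 were tested. In E1E2 G9Gl, Ptprb, a phosphatase that acts on Tie2, and Foxo1, a transcription factor downstream of it, were called higher and the adaptor Dok2 lower, 3 of 10 where 25.2% of all genes were called. In 6KO2, Tek, Ptprb and the integrin Itgb3 were called higher and Dok2 lower, where 20.7% of all genes were called. The median log2 fold changes were 0.64 and 0.66, against 0.01 and 0.04 over all genes. Tek reached 17 to 34 reads per library in 6KO1 and at most 11 in any other line. Ptprb reached 18 to 23 in E1E2 G9Gl and 6KO2 and at most 8 elsewhere. Both genes passed the filter on low counts only through these lines, so their calls are no support for a pattern.

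The vascular endothelial growth factor (VEGF) genes moved in several lines. Of 10 tested, Vegfb, Vegfc, Kdr and Flt4 were called higher and Flt1 lower in E1E2 G9Gl against WT, where 25.2% of all genes were called. In 6KO2, Vegfc, Kdr and Flt4 were called higher and Flt1 lower, where 20.7% were. Vegfc, a ligand of the receptor that Flt4 encodes, averaged 32.4 ± 3.3 normalized reads in WT, 88.8 ± 5.5 in E1E2 G9Gl and 422 ± 53.6 in 6KO2. Flt4 averaged 29.6 ± 4.0, 144 ± 17.2 and 191.9 ± 4.6 in the same lines.

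Markers of other cell types moved with these lines. The summed level of 10 endothelial markers ranged from 1.8 to 1.9 TPM in the E1E2 G9Gl libraries, with 4 of them at 0. It reached 3.61 to 4.21 TPM for 6KO1 and 2.12 to 3.1 TPM for 6KO2. Against WT, 5 of 6 tested endothelial markers were called higher in 6KO2 (Pecam1, Cdh5, Tek, Kdr and Vwf), where 20.7% of all genes were called. Cdh5 and Kdr were called higher in E1E2 G9Gl (25.2% of all genes), and none was called lower in either. These genes had at most 6 reads per WT library and passed the filter only through other lines, so their calls are no support for a pattern. The summed level of 8 haematopoietic markers was 4.82 to 7.4 TPM in WT, 25.1 to 28 TPM in E1E2 G9Gl and 37.1 to 41.2 TPM in 6KO1, where Cd68 gave 37.6 ± 1.8 TPM. In E1E2 G9Gl, 4 of the 5 that were tested (Ptprc, Lyz2, Itgam and Cd3e) were called higher, where 25.2% of all genes were called. They were at 47.7 ± 2.6, 152 ± 11.2, 507.5 ± 11 and 42.0 ± 5.3 normalized reads. All 4 were at 0 in WT, so they passed the filter only through other lines, and their calls are no support for a pattern. Cd68 was at 86.1 ± 14.5 there and 98.5 ± 8.6 in WT, Csf1r was at 0 there and 3.64 ± 0.63 in WT, and Adgre1 was at 0 in WT, E1E2 G9Gl and 6KO1.

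Fibroblast markers summed to 3860 to 3920 TPM in E1E2 G9Gl, against 1850 to 2460 TPM in WT, and went both ways. S100a4 (373 ± 61.5 TPM in WT and 1476 ± 61.7 TPM in E1E2 G9Gl), Col3a1 and Thy1 were called higher, and Pdgfra and Dcn lower. In that contrast 25.2% of all genes were called. Epithelial markers summed to 1.16 to 2.23 TPM in WT, 14.8 to 15.6 TPM in E1E2 G9Gl, 34.1 to 35.3 TPM for 6KO1 and 26 to 28 TPM for 6KO2. They went both ways too. Of the 3 tested, Krt8 and Krt14 were called higher and Epcam lower than in WT in E1E2 G9Gl and in 6KO2. Of all genes, 25.2% and 20.7% were called in these contrasts. Pericyte and smooth muscle markers summed to 221 to 230 TPM in WT, 24.1 to 25.1 TPM in E2 and 325 to 340 TPM in E1E2 G9Gl. Acta2 made up most of the WT and E1E2 G9Gl sums, at 217.5 ± 6.9 and 301.3 ± 7.3 TPM, and was at 12.7 ± 0.2 TPM in E2. The means of Cspg4, Des, Notch3 and Myh11 in E2 were not below those in WT, and that of Cnn1 was. The 6 adipocyte markers stayed under 1 TPM in sum in every library. The part of these genes in the results for Angptl4, Angpt2, Lpl and Tek was not tested.

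Over the 8 condition means of log2 CPM (depth-scaled counts), the gene most like Angptl7 was Gm4784 (Pearson r = 0.989), followed by Ak4 and Mir1938 (both 0.976), and 341 of 18564 genes had r above 0.9. The closest genes to Angptl4 were Dclre1b (0.971), Itga2b (0.962) and Slc19a2 (0.959), those to Angpt2 were Gm43857 (0.962), 2210408I21Rik and Cutc (both 0.96), and those to Angptl2 were Rrm2b (0.969), Cd24a (0.968) and Zfp677 (0.961). For Angptl6 they were Acot2 (0.967), Ift20 (0.952) and March6 (0.946), and for Angpt4 Cmpk1 (0.973), Ttc13 (0.969) and Zfp947 (0.959). Within the family, the lowest correlations were between Angptl7 and Angpt2 (r = -0.833) and between Angptl4 and Angpt4 (r = -0.755). The first includes the 6KO1 mean of Angptl7, for which the family was picked. The second rests on Angpt4, which passed the filter only through E1E2 G9Gl. Neither is support for a pattern over the family. The means of Angptl7 and Angpt2 were both below WT in E2, E1E2 and 6KO2. In the remaining mutant lines Angptl7 was lower and Angpt2 higher, although Angpt2 in E1 overlapped WT. All correlations are descriptions over 8 means that share libraries and lineage.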

How the data were processed

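RNA-seq libraries were prepared with a stranded total RNA kit and sequenced in pairs. Per the study's methods, reads were trimmed with cutadapt 1.8.1, mapped to GRCm38 with STAR 2.5.2b and counted with TEtranscripts. The authors deposited raw counts per gene and repeat family, with 47937 gene entries, 1445 repeat entries and 1 malformed entry, which was left out. Conditions followed the sample titles. Genes were kept with filterByExpr by condition (18565 genes), scaled with TMM factors from genes (0.906 to 1.1) and fitted over all 24 libraries with edgeR 4.0.16 (quasi-likelihood, R 4.3.3). Calls needed a fold change of at least 2 and a Benjamini-Hochberg adjusted p of at most 0.01; for a difference between 2 changes the adjusted p alone was used. Total counts of 24737307 to 37419816 per library set the precision for rare genes. DESeq2 1.42.0, RLE factors, factors from genes and repeats, no filter, no fold minimum, only the conditions compared, a replicate block and leaving out each library were the alternatives. The fit was tested on simulated data. TPM used exon union lengths of GENCODE vM21.

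The members and lists were chosen with earlier results of these data known. Named genes were the members, Angptl8, host genes, list genes called against WT (up to 4 per list) and the 3 genes most like each member. The single marker genes, Tie1, Bnip3 and the genes drawn in the pathway plot were chosen after their values were seen, as were the 250 kb windows. 1 item covered by this rule is not reported here.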

Additional observations from a re-analysis of the deposited data

Results flagged for a closer look

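Changes of the same kind differed between the 2 series for 3 members, by an edgeR test of the difference itself with Benjamini-Hochberg adjustment. With 4-OHT, Angptl4 rose in the Eset2 mutant clone and not detectably in its parent, a difference of 1.99 on the log2 scale, with all 3 E1E2 libraries above all 3 E2 libraries. Of all genes tested, 8.89% differed in this way. At the Suv39h step, where 39.2% of all genes did, the differences were 6.83 for Angptl7, 2.86 for Angptl4 and -2.96 for Angpt2. For these genes all 3 libraries of 6KO2 lay on 1 side of all 3 libraries of E1E2 G9Gl, whereas E1 S1S2 and E1 differed by less than 2-fold.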

How the results depend on the processing

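Of 1180 recomputed fold changes of members, 1133 kept their direction and side of the threshold, 29 passed it only in the alternative, 5 lost it and 8 changed sign. Of 205 recomputed counts of called members or 6KO1 levels, 192 kept their value within the limit. With no fold minimum, the members called were 3 in E1 S1S2 and 4 in E1E2 (1 each before), 3 in 6KO2 (0 before) and 2 in E1 S1S2 against E1 (0 before). With only the conditions compared, E2 had 1 instead of 2. Leaving out 1 library gave 1 to 2 for E2, 1 to 3 for E1E2 (3 without E1E2 replicate 2) and 0 to 1 for 6KO2 (1 without 6KO2 replicate 3). The Angptl7 log2 fold change in 6KO1 ran from -10.93 to -10.62 against WT and from -6.24 to -5.93 against E1 S1S2. Signs turned only in changes that were not called. Angptl4 in E1 was -0.011 with factors from genes and repeats and -0.004 with the replicate block, and ran from -0.145 to 0.163 without 1 library. In E1 S1S2 against E1, Angptl6 ran from -0.205 to 0.075 and Angpt4 from -0.162 to 0.722. Same-numbered replicates did not pair (84 pairs, mean r 0.005, range -0.291 to 0.24), and the replicate block changed no count of called members by over 1.5 times. Read depth limits Angptl1, Angpt1 and Angpt4 everywhere and Angptl7 in 6KO1 and E1E2 G9Gl.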
